A study of Rattus norvegicus with 13 samples.

Results

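miR-132 and miR-212 are a pair of neighbouring microRNAs that were followed here through all 4 of their mature arms, miR-132-3p, miR-132-5p, miR-212-3p and miR-212-5p, in rat kidney after irradiation with and without an angiotensin converting enzyme inhibitor. The 4 arms (rno-miR-132-3p, rno-miR-132-5p, rno-miR-212-3p and rno-miR-212-5p, written without the species prefix below) were taken by name from the 460 rows of mature rat miRNAs in the deposited count table, and all 4 were present. Libraries of small RNA came from the kidneys of 13 female rats of the inbred strain WAG/RijCmcr, 11 to 12 weeks old and weighing about 155 g when treated. Control rats (n = 4) were age matched and received 0 Gy. The irradiated group without medication (n = 4) was exposed to a dose of 13 Gy (320 kVp orthovoltage, 1.75 Gy per minute), with 1 hind limb shielded (leg-out PBI). Rats of the third group (n = 5) received the same irradiation plus lisinopril in the drinking water, at a daily dose of about 24 mg per square metre, starting on day 7. The treatment protocol also lists saline injections (40 ml per kg per day, days 3 to 7) and enrofloxacin (10 mg per kg per day, up to day 14) as supportive care after irradiation. All kidneys date from day 35.

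A microRNA gene is transcribed as a long precursor, from which a hairpin is cut. Each hairpin can release a mature strand from its left arm (5p) and from its right arm (3p), and the strand loaded into Argonaute recognises target mRNAs mainly through its seed, the bases 2 to 8. The miR-132/212 genes are known targets of the cyclic AMP-responsive transcription factor CREB. They have been linked to signalling by angiotensin II through its Gq-coupled receptor in heart and vessels, and are best known from neurons. Lisinopril blocks the enzyme that makes angiotensin II, so the comparison of both irradiated groups asks whether these arms differ when that enzyme is inhibited. Angiotensin II itself was not analysed here.

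In RefSeq's GRCr8 annotation Mir212 and Mir132 are adjacent genes, with Hic1 on the Mir212 side. RefSeq's mature sequences, matched by name for 4 of 4 arms, show why the 3p arms are read as a pair and the 5p arms are not. They are written 5′ to 3′ with the seed in capitals, and both genes lie on the plus strand of that build.
miR-132-3p: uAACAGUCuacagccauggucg
miR-212-3p: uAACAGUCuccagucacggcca
miR-132-5p: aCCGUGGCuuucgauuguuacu
miR-212-5p: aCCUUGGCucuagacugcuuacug

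The seed AACAGUC was identical in both 3p arms, and among 693 mature rat miRNA names in the RefSeq table no other carried it. Both 3p arms were identical over their first 9 bases and at 17 of 22 positions. The 5 substitutions from miR-132-3p to miR-212-3p, counted from the 5′ end, were A10C, C14U, U17C, U20C and G22A. Full-length reads of the 3p arms therefore differ at 5 positions, all of them behind the seed. The 5p arms matched at 14 of 22 compared positions and at 6 of 7 seed positions, where the difference was G4U. No other mature rat name shared the seed of miR-132-5p or of miR-212-5p.

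Levels are given in CPM, read counts as parts of the TMM-scaled library size, and since a read covers a whole mature miRNA no length scaling applies. Library totals over rat mature miRNAs lay between 1194175 and 11095939 counts. Control library 2 was by far the shallowest. Its floor, the CPM of 3 counts, was 3.19 CPM, against 0.289 to 0.561 CPM in the other 12 libraries. Floors and Poisson intervals cover counting error only. The 5 kidney tubule markers fixed for the tissue check (miR-192-5p, miR-194-5p, miR-204-5p, miR-10a-5p and miR-30a-5p) were present in every library, with summed levels of 425651 to 736939 CPM in control, 345289 to 478357 CPM in irradiated and 442254 to 572676 CPM in lisinopril libraries. The mean of this sum was lowest in the irradiated group (396029 CPM, against 567255 and 523241 CPM). The sum is mostly miR-10a-5p, whose log2 fold change between irradiated and control was -0.54. miR-192-5p, miR-194-5p and miR-30a-5p were at -0.31 to -0.56 and miR-204-5p at 0.05, and none of the 5 passed after adjustment in edgeR. The part of these markers in the results that follow was not tested.

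All 4 arms were scarce in kidney, and their order by level was clear only at the top. miR-132-3p, the main strand, ranked 237 of 419 tested miRNAs with a mean of 22.0 CPM over the 13 libraries, and it had more reads than each other arm in 13 of 13 libraries. miR-212-3p followed at 4.77 CPM (rank 319) and exceeded both 5p arms in 13 of 13 libraries. The 5p arms were near the limit of detection, miR-132-5p at 1.27 CPM (rank 396) and miR-212-5p at 0.963 CPM (rank 412). Their order was not fixed: miR-132-5p had more reads than miR-212-5p in 6 libraries and fewer in 7. In the irradiated group miR-212-5p was ahead in 4 of 4 libraries, and in the lisinopril group miR-132-5p was ahead in 4 of 5.

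The counts behind these levels decide how firmly each arm can be read. miR-132-3p had 23 to 211 reads per control library, 111 to 226 per irradiated library and 152 to 245 per lisinopril library. miR-212-3p had 5 to 61, 22 to 45 and 28 to 65 reads. miR-132-5p had fewer than 10 reads in 7 of 13 libraries and miR-212-5p in 8 of 13. The coefficient of variation of miR-132-3p was 27.4%, 15.8% and 11.9% in control, irradiated and lisinopril kidneys, beside a mean counting error of 11.6%, 8.23% and 6.96%. For miR-132-5p it was 85.3%, 45.5% and 23.9%, beside a mean counting error of 44.4%, 48.5% and 27.5%. All 4 arms passed the filter on low counts. That filter reads CPM on library totals before TMM scaling. On that scale miR-132-5p reached its limit of 1.18 CPM in 2 control, 1 irradiated and 3 lisinopril libraries, and miR-212-5p in 1, 3 and 1.

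**Figure D1:**
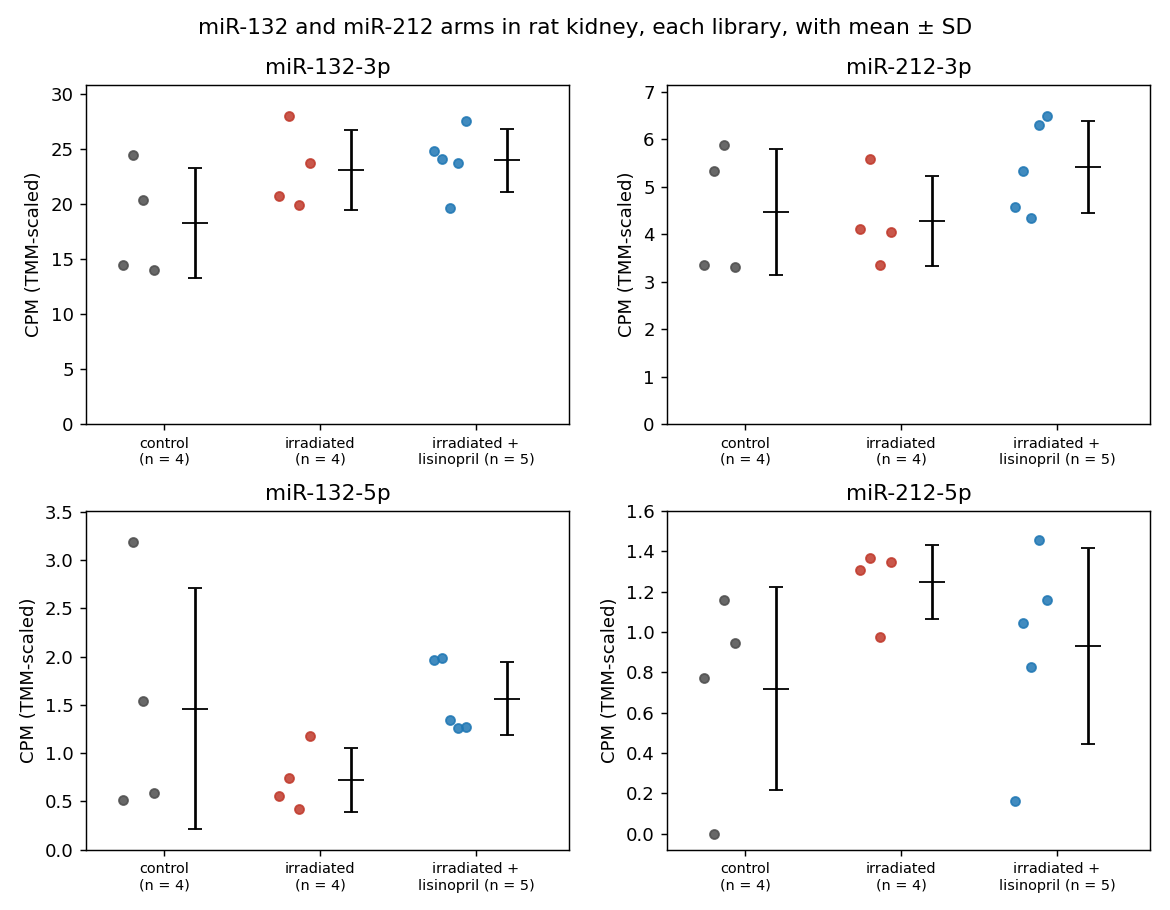
CPM (vertical axes, each starting near 0 and with its own scale) of the 4 arms in each kidney library (points) in the 3 groups (n = 4, 4 and 5), with the group mean ± SD in black. miR-132-3p spans 14.0 to 28.0 CPM with overlap of all groups, and the 5 lisinopril points of miR-132-5p lie above the 4 irradiated ones.

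Irradiation alone was compared with control first. miR-132-3p, which carries the shared seed and most of the reads, was at 14.4, 24.5, 20.3 and 14.0 CPM in control libraries 1 to 4 and at 20.7, 28.0, 20.0 and 23.8 CPM in irradiated libraries 1 to 4. Control libraries 1 and 4 were lower than every irradiated library, while control libraries 2 and 3 lay within the irradiated range. The means were 18.3 ± 5.01 CPM (SD, n = 4) and 23.1 ± 3.66 CPM (SD, n = 4). The log2 fold change was 0.39 (SE 0.196, 95% interval -0.03 to 0.80), and edgeR's quasi-likelihood test gave a Benjamini-Hochberg adjusted p = 0.264, adjusted over 419 miRNAs as are all edgeR values below. An increase of 1.31-fold was thus not called, and the interval reached from 0.977-fold to 1.75-fold.

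miR-212-3p, with the same seed, showed no such offset. Its level was 3.35, 5.32, 5.88 and 3.30 CPM in control libraries 1 to 4 and 4.11, 5.58, 3.35 and 4.04 CPM in irradiated libraries 1 to 4. Both groups covered nearly the same range, with means of 4.46 ± 1.33 and 4.27 ± 0.940 CPM (SD, n = 4 each). The log2 fold change was -0.01 (SE 0.255, 95% interval -0.56 to 0.53, edgeR adjusted p = 0.994). Its sign was not stable, as scaling by library totals gave 0.18.

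The 5p arms gave wide intervals in opposite directions. miR-132-5p was at 0.515, 3.19, 1.54 and 0.590 CPM in control libraries 1 to 4, and at 0.561, 0.744, 0.419 and 1.18 CPM in irradiated libraries 1 to 4. The 3.19 CPM of control library 2 is 3 reads, with a 95% Poisson interval of 0.658 to 9.33 CPM. The log2 fold change was -0.51 (95% interval -1.56 to 0.53, edgeR adjusted p = 0.535), and without control library 3 it was -0.06. miR-212-5p was at 0.773, 0, 1.16 and 0.944 CPM in control libraries 1 to 4, where the 95% Poisson interval of the 0 reaches 3.92 CPM, and at 1.31, 1.36, 0.977 and 1.35 CPM in irradiated libraries 1 to 4. Its log2 fold change was 0.43 (95% interval -0.49 to 1.35, edgeR adjusted p = 0.561). In this comparison 0 of the 4 arms passed, where 1.67% of all 419 miRNAs did. After adjustment limma-voom called 0 of 4, and DESeq2, which gave an adjusted p for the 3p arms only, called 0 of 2. At an unadjusted p under 0.05 edgeR had 0 of 4, against 22.2% of all miRNAs. miR-132-3p was under 0.05 before adjustment in DESeq2, in limma-voom, and in edgeR scaled by library totals or run without control library 2, and it passed after adjustment in none of these.

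Lisinopril was then compared with irradiation alone, the comparison closest to angiotensin signalling. miR-132-3p was at 24.9, 24.1, 19.6, 23.8 and 27.6 CPM in lisinopril libraries 1 to 5, inside or close to the range of the irradiated libraries. The mean was 24.0 ± 2.86 CPM (SD, n = 5), against 23.1 ± 3.66 CPM without the drug. The log2 fold change was 0.05 (SE 0.180, edgeR adjusted p = 0.922), and the 95% interval ran from 0.795-fold to 1.35-fold. A decrease of miR-132-3p under the inhibitor beyond that lower bound lay outside the interval, while smaller differences in either direction lay within it. That bound holds for TMM scaling only, and with library totals the log2 fold change was -0.14.

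miR-212-3p was at 4.58, 5.33, 4.34, 6.31 and 6.49 CPM in lisinopril libraries 1 to 5. Libraries 4 and 5 exceeded every irradiated library, and the other 3 overlapped with them. The mean was 5.41 ± 0.975 CPM (SD, n = 5), and the log2 fold change against irradiation alone was 0.34 (SE 0.229, 95% interval -0.15 to 0.82, edgeR adjusted p = 0.468).

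miR-132-5p, the minor strand of the miR-132 hairpin, was the arm that stood apart between the irradiated groups. It was at 1.96, 1.99, 1.34, 1.26 and 1.27 CPM in lisinopril libraries 1 to 5, from 12, 19, 13, 13 and 11 reads. All 5 lay above the 4 irradiated libraries, whose highest value was 1.18 CPM from 7 reads. The means were 1.57 ± 0.374 CPM (SD, n = 5) with the drug and 0.726 ± 0.330 CPM (SD, n = 4) without it. The fitted log2 fold change was 1.09 (SE 0.421, 95% interval 0.19 to 1.99), a 2.13-fold difference, with an edgeR adjusted p = 0.248. By p it ranked 34 of 419. The difference was therefore not called after adjustment, and the gap between the groups, 1.18 against 1.26 CPM, was smaller than the Poisson interval of the library on either side of it (0.474 to 2.43 CPM and 0.672 to 2.16 CPM). No overlap with the drug group higher was found in 2.15% of all 419 miRNAs. miR-132-5p had reached the limit of the low-count filter in 2 control, 1 irradiated and 3 lisinopril libraries. It was thus kept partly through the group where it was higher, and its separation and rank carry that limit. A fit of only the irradiated groups dropped it, as did the fit without lisinopril library 2. Control libraries, at 0.515 to 3.19 CPM, overlapped with both irradiated groups.

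miR-212-5p was at 0.164, 1.04, 0.827, 1.46 and 1.16 CPM in lisinopril libraries 1 to 5. The 0.164 CPM of library 1 is a single read, with a 95% Poisson interval of 0.00414 to 0.911 CPM. The log2 fold change against irradiation alone was -0.35 (95% interval -1.17 to 0.47, edgeR adjusted p = 0.652), so the 5p arms of both hairpins pointed in opposite directions without either being called. Over all 419 miRNAs edgeR called 0 in this comparison (0%), with 63 at an unadjusted p under 0.05, while DESeq2 called 4 higher and 7 lower and limma-voom 0 and 2. Of the 4 arms 0 were called by edgeR or limma-voom, DESeq2 gave none of them an adjusted p, and 1, miR-132-5p, had an unadjusted p under 0.05 in edgeR, against 15% of all miRNAs.

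Against control, kidneys of lisinopril-treated irradiated rats had more miR-132-3p on average, 24.0 ± 2.86 against 18.3 ± 5.01 CPM. The log2 fold change was 0.44 (SE 0.187, 95% interval 0.04 to 0.84), and the edgeR adjusted p = 0.182 did not pass. For miR-132-5p it was 0.57 (95% interval -0.29 to 1.43, edgeR adjusted p = 0.463), for miR-212-3p 0.33 (-0.18 to 0.83, adjusted p = 0.482) and for miR-212-5p 0.08 (-0.80 to 0.95, adjusted p = 0.955). Single controls moved these values: miR-132-5p was at 0.30 without control library 1, 0.32 without library 4 and 1.05 without library 3, and miR-212-3p at 0.61 without library 3. Again 0 of 4 arms passed, where 6.21% of all miRNAs did, and DESeq2 and limma-voom also called 0 of 4. At an unadjusted p under 0.05 it was 1 of 4, against 22.7% of all miRNAs. Both comparisons with control share the same 4 control libraries, so their like values for miR-132-3p (0.39 and 0.44) are not independent.

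**Figure D2:**
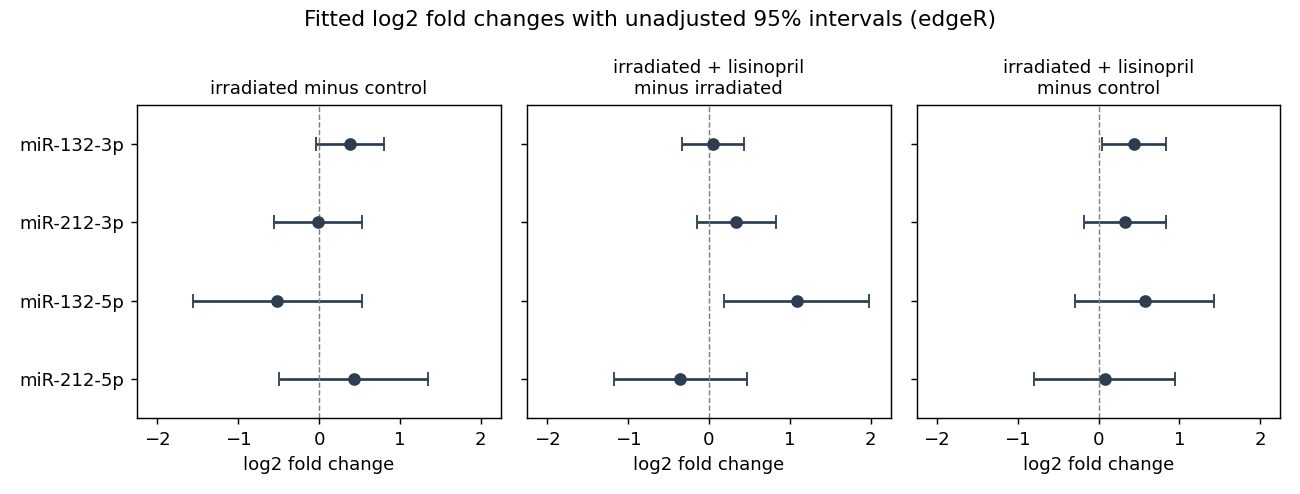
Fitted log2 fold changes (horizontal axes) of the 4 arms in the 3 comparisons, with unadjusted 95% intervals from the edgeR fit of 13 libraries. Only miR-132-5p between the irradiated groups (0.19 to 1.99) and miR-132-3p between lisinopril and control (0.04 to 0.84) have intervals that leave out 0, and neither passed after adjustment over 419 miRNAs.

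Scaling between libraries bears on these values. With library totals in place of TMM, the median log2 fold change of all 419 miRNAs moved from 0.02 to 0.26 between irradiated and control kidneys and from -0.02 to -0.21 between lisinopril and irradiation alone. Relative to that median, miR-132-3p was at 0.37 with TMM and 0.36 with library totals in the first comparison, and at 0.07 with both in the second. miR-132-5p in the second comparison was at 1.11 and 1.12 above the median.

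Ratios within a library do not depend on that scaling. The ratio of the 3p arms did not overlap between irradiated and control kidneys, but the difference did not pass after adjustment (below). How often ratios of other miRNA pairs lie apart in this way was not tested. The log2 ratio of miR-212-3p to miR-132-3p counts, each with 1 added, was -2.07, -2.0, -1.77 and -2.05 in control libraries 1 to 4. In the 4 irradiated libraries, in order, it was -2.28, -2.30, -2.53 and -2.51, each lower than every control. With lisinopril the 5 values were -2.40, -2.16, -2.15, -1.90 and -2.07, and only library 1 lay inside the irradiated range.

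In other terms, miR-212-3p stood at 0.255 times miR-132-3p in control kidneys, 0.189 times in irradiated kidneys and 0.228 times with lisinopril (geometric means). The mean log2 ratio was -1.97 ± 0.135 (SD, n = 4), -2.40 ± 0.129 (SD, n = 4) and -2.13 ± 0.181 (SD, n = 5). The difference between irradiated and control was -0.43, with p = 0.0286 in a two-sided exact permutation test, the smallest that 4 against 4 allows, and 0.0952 after Benjamini-Hochberg adjustment over the 9 ratio tests. Between lisinopril and irradiation alone it was 0.27 (exact permutation p = 0.0476, adjusted 0.103), and between lisinopril and control -0.16 (exact permutation p = 0.175, adjusted 0.224). None of the 9 ratio tests passed after adjustment. With groups of 4 and 5, however, a single fully separated ratio cannot pass this adjustment on its own. Its failure to pass therefore does not show that a ratio was unchanged.

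The balance of the arms of each hairpin was the other ratio tested. miR-132-5p made up 5.68% of all miR-132 reads in control kidneys (28 of them against 465 of miR-132-3p), 2.97% in irradiated kidneys (19 against 621) and 6.05% with lisinopril (68 against 1056). The exact binomial 95% intervals of these pooled shares, 3.81% to 8.10%, 1.80% to 4.60% and 4.73% to 7.61%, cover counting error and not the spread between animals. Per library, the log2 ratio of miR-132-3p to miR-132-5p was 4.81, 5.02, 5.17 and 4.15 after irradiation alone, against 3.56, 3.54, 3.77, 4.14 and 4.32 in lisinopril libraries 1 to 5. Irradiated library 4 lay among the lisinopril libraries and the other 3 lay above them. Control libraries 1 to 4, at 4.50, 2.58, 3.64 and 4.32, overlapped with both groups. The difference between lisinopril and irradiation alone was -0.92 (exact permutation p = 0.0317, adjusted 0.0952). It rests on the same miR-132-5p reads as the fold change of that arm given above. These results are therefore not independent, and the limit from the low-count filter applies here too.

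The pooled shares of the miR-212 hairpin had the opposite order, with intervals that overlapped between all groups. miR-212-5p held 17.8% of its reads in control kidneys, 22.3% in irradiated kidneys and 15.4% with lisinopril, with exact binomial intervals of 12.0% to 25.0%, 15.9% to 29.9% and 11.4% to 20.1%. The log2 ratio of miR-212-3p to miR-212-5p was 1.52, 1.94, 1.64 and 1.47 after irradiation alone and 3.86, 2.24, 2.26, 2.04 and 2.37 with the drug. All 5 lisinopril libraries were higher, by 0.91 on average (exact permutation p = 0.0159, adjusted 0.0952), and by 0.58 without lisinopril library 1, which holds the single read. The gap was narrow, between 1.94 in irradiated library 2 (45 and 11 reads) and 2.04 in lisinopril library 4 (65 and 15 reads). How often arm ratios of other hairpins lie apart in this way was not tested. miR-212-5p reached the limit of the low-count filter in 1 control, 3 irradiated and 1 lisinopril libraries. That is mostly in the group where its share was highest, and the separation carries that limit. Control libraries 1 to 4, at 1.95, 2.58, 2.25 and 1.69, overlapped with both groups. Against control, the irradiated kidneys differed by 1.03 in the miR-132 ratio (exact permutation p = 0.0857) and by -0.47 in the miR-212 ratio (exact permutation p = 0.0571), with adjusted values of 0.129 and 0.103. Control library 2 holds 3 reads of miR-132-5p and 0 of miR-212-5p. Without it the miR-132 difference was 0.63 and the miR-212 difference -0.32. With 0.5 added to each count in place of 1, the miR-212 difference was -0.68.

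**Figure D3:**
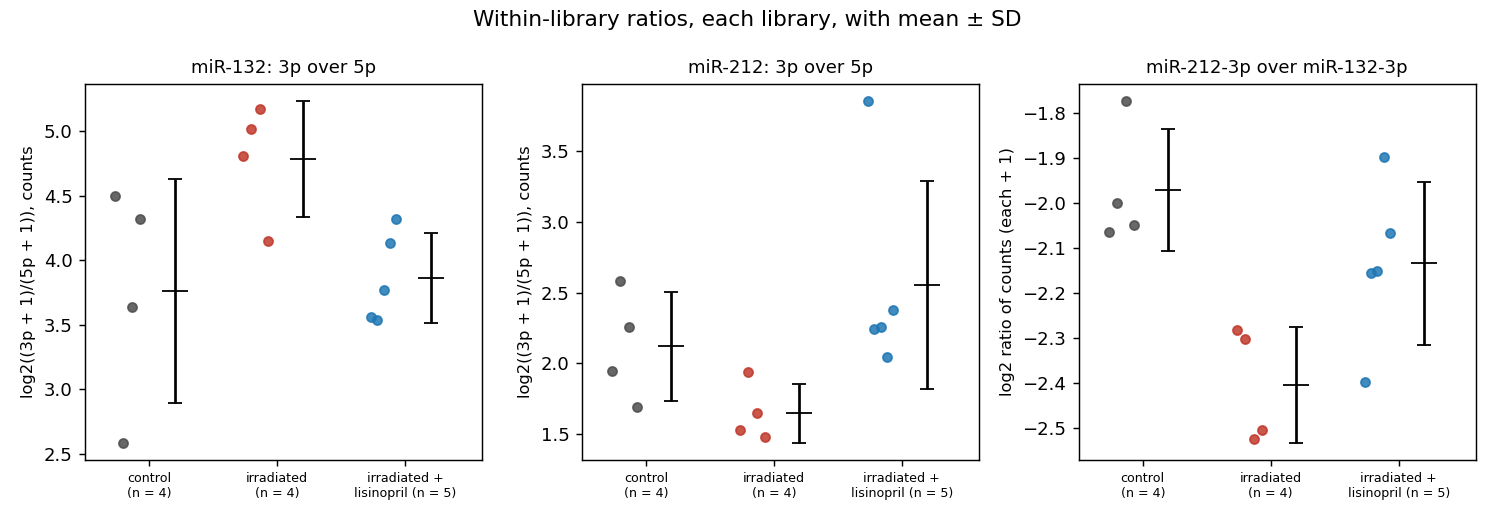
Log2 ratios of read counts, each with 1 added, in every library (points) with the group mean ± SD in black: miR-132-3p over miR-132-5p, miR-212-3p over miR-212-5p, and miR-212-3p over miR-132-3p. In the right panel the 4 irradiated libraries (-2.53 to -2.28) lie below the 4 controls (-2.07 to -1.77).

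Across the 13 libraries the 3p arms varied together. Log2 CPM of miR-132-3p and miR-212-3p correlated with Pearson's r = 0.76 (permutation p = 0.00181) and Spearman's rho = 0.72 (permutation p = 0.00778), or 0.0109 and 0.0467 after adjustment over the 6 pairs of arms. Without the 2 libraries farthest from the median of miR-132-3p, control libraries 1 and 4, r fell to 0.58 (permutation p = 0.0638, n = 11), so that the relation rests partly on those libraries. Around the group means r was 0.86. Both values of a library share its scaling factor. No other pair passed after adjustment: miR-132-3p with miR-132-5p had r = 0.54 (adjusted permutation p = 0.0883) and miR-212-3p with miR-212-5p r = 0.03 (adjusted permutation p = 0.918).

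**Figure D4:**
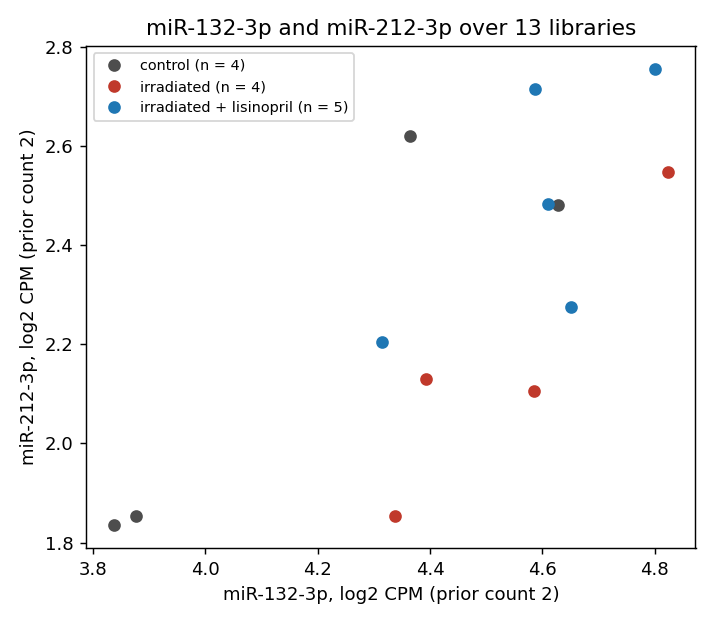
Log2 CPM (prior count 2) of miR-132-3p (horizontal axis) against miR-212-3p (vertical axis), 1 point per kidney library coloured by group. Control libraries 1 and 4 sit at the lower left. Each irradiated point has a lower ratio of miR-212-3p to miR-132-3p than every control, and lisinopril library 1 lies among the irradiated ones in this ratio.

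The miRNAs whose profile was most like that of miR-132-3p were ranked by Pearson's r of log2 CPM over the 13 libraries, among 282 others with a mean of at least 10 CPM. They were miR-598-3p (0.84), miR-141-5p (0.83), the minor strand of an epithelial miR-200 family hairpin, miR-187-3p (0.76), miR-92b-3p (0.76) and miR-31a-5p (0.75). Without control library 2 the first 5 were miR-92b-3p (0.88), miR-598-3p (0.84), miR-141-5p (0.83), miR-1247-5p (0.82) and miR-672-5p (0.80). These values describe the libraries and share their scaling. miR-212-3p, with a mean under 10 CPM, was not among the miRNAs ranked. Its r of 0.76 with miR-132-3p over the 13 libraries was lower than that of miR-598-3p or miR-141-5p. The covariation of the 3p arms is thus not particular to this pair, and how often other pairs reach it was not tested.

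Other miRNAs linked to angiotensin signalling were read from a list of 18, of which 16 were in the table and tested. The list, miR-802-5p included, was chosen with earlier results of these data known. A call within it is therefore a description and no independent support for a link to angiotensin. Between irradiated and control kidneys 0 rose and 1 fell, between lisinopril and irradiation alone 0 rose and 0 fell, and between lisinopril and control 0 rose and 1 fell. The shares called over all 419 miRNAs were 1.67%, 0% and 6.21% in these comparisons. The one that fell was miR-802-5p, which has been described to target the angiotensin type 1 receptor mRNA, from 11.4 CPM in control to 4.98 CPM in irradiated (log2 fold change -1.14, edgeR adjusted p = 0.0216) and 4.41 CPM in lisinopril kidneys (-1.30, adjusted p = 0.00226). The first of these calls was lost with library totals (edgeR adjusted p = 0.067), with a fit of only these groups (0.0833) and with other-species miRNAs included (0.0611). It was also lost without control library 1 (edgeR adjusted p = 0.088) or 4 (0.0803) and without irradiated library 2 (0.0671) or 3 (0.0608), while the second held in every alternative run for it. The list's median log2 fold change was -0.16, -0.06 and -0.17 in the 3 comparisons, beside 0.02, -0.02 and 0.05 over all 419. In the drug comparison the smallest p-values of the list belonged to miR-222-3p (-0.44, edgeR adjusted p = 0.248), miR-27b-3p (0.35, adjusted p = 0.248) and miR-221-3p (-0.24, adjusted p = 0.386).

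Because miR-132 and miR-212 are abundant in neurons, neural markers were read beside them. Of 7 such markers 5 were in the table, miR-9a-5p, miR-9a-3p, miR-128-3p, miR-129-5p and miR-218a-5p, and the strictly neuronal miR-124-3p was not among the rows used here. Their summed level was 704 to 797 CPM in control, 549 to 907 CPM in irradiated and 753 to 944 CPM in lisinopril libraries, so the groups overlapped. That sum is mostly miR-218a-5p and miR-9a-5p, and the markers did not move together. Between lisinopril and irradiation alone the log2 fold change of miR-128-3p was -0.49. The other 4 neural markers were at 0.10 to 0.49, and none of the 5 passed. Leukocyte markers summed to 676 to 1014, 817 to 1260 and 660 to 1423 CPM. That sum is mostly miR-150-5p, whose log2 fold change between irradiated and control was 0.66, while the other 4 leukocyte markers were at -0.50 to -0.61, and none of the 5 passed. Endothelial markers summed to 11645 to 14615, 8537 to 14043 and 10147 to 15599 CPM. Between lisinopril and irradiation alone the log2 fold change of miR-126a-5p was 0.56 and that of miR-126a-3p 0.01. Between lisinopril and control they were at 0.28 and -0.20, and neither marker passed. In whole kidney, fewer cells of a type and less RNA per cell cannot be told apart, and the part of these cell types in the values above was not tested.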

How the data were processed

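Small RNA libraries were made from total kidney RNA with a TruSeq small RNA kit, per the labels' protocols. The submitters' processing notes name Trim Galore 0.2.5, Bowtie 1.1.1 and the genome build rn4. Assignment of reads to miRNAs, multiply mapping reads included, was not given in the sources used here. Per the table, the authors deposited raw read counts, whole numbers for each miRNA in each library. Groups came from the labels' group name, and replicate numbers only name libraries. Nothing in the labels gives a batch or pairing. Between replicates, chi-square over its degrees of freedom was at least 108, so none was counted as a duplicate.

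edgeR 4.0.16 in R 4.3.3 was run on the 460 rat mature rows. filterByExpr by group kept 419. TMM scaling and a quasi-likelihood fit with a mean per group used all 13 libraries, with Benjamini-Hochberg adjustment over 419 miRNAs and a threshold of 0.05. Log2 CPM adds a prior count of 2. Ratios add 1 count and were tested by two-sided exact permutation in SciPy 1.17.1. Alternatives were RLE factors, library totals, other filters, DESeq2 1.42.0, limma-voom (limma 3.58.1), fits of 2 groups, and leaving out each library. For ratios, 0.5 was also added in place of 1 count. The fit was tested on simulated data. The members and lists were chosen with earlier results of these data known. Genes named were the 4 arms, the 5 most similar miRNAs, and list members called or with the 3 smallest p-values. Cell type markers were read as sums, with fold changes of single kidney tubule, neural, leukocyte and endothelial markers given beside them.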

Additional observations from a re-analysis of the deposited data

Results flagged for a closer look

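Of 21 sets of values (4 arms and 3 ratios in 3 groups), 2 held a library far from the others, by a gap that chance gives for about 1 set in 20. miR-212-5p in irradiated library 3 was at 0.977 CPM, from 7 reads, against 1.31 to 1.36 CPM in the other 3 irradiated libraries. The log2 ratio of miR-212-3p to miR-212-5p in lisinopril library 1 was 3.86, against 2.04 to 2.37 in the other 4, and that library holds 1 read of miR-212-5p.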

How the results depend on the processing

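In all alternatives that gave an adjusted p, 0 of the arms tested were called in any comparison, the same as in the reported fit, and no ratio passed. For the ratios this is no check between irradiated and control with a library of either group left out. There the exact permutation test cannot go below p = 0.0571. Signs turned where the fitted value was near 0. For miR-212-3p between irradiated and control, library totals gave 0.18, no low-count filter 0.0100, DESeq2 0.0010 and limma-voom 0.0072, and leaving out single libraries gave -0.18 to 0.24. For miR-132-3p between lisinopril and irradiation alone, library totals gave -0.14, a mean of at least 10 CPM -0.0129, and leaving out single libraries -0.0352 to 0.149. For miR-212-5p between lisinopril and control, leaving out single libraries gave -0.0115 to 0.303, and for the miR-132 ratio of 3p to 5p in that comparison -0.29 to 0.35. All other values, miR-802-5p included, kept their direction. For miR-132-5p between lisinopril and irradiation alone, the log2 fold change was 0.91 to 1.12 under other settings and 0.88 to 1.36 with single libraries left out (adjusted p = 0.0718 to 0.549). Leaving out control library 2 from that fit, chosen after seeing the data, gave an adjusted p = 0.194, and adding other-species miRNAs, also chosen after seeing the data, 0.288. The filter of 10 CPM left only miR-132-3p. Fits of 2 groups dropped the 5p arms in all comparisons but miR-132-5p between lisinopril and control, and the fits without lisinopril library 2 or 4 dropped miR-132-5p or miR-212-5p respectively. DESeq2 gave no adjusted p for the 5p arms between irradiated and control, nor for any of the 4 arms between lisinopril and irradiation alone. The causes were not tested. Read numbers under 10 in most libraries limit both 5p arms.

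No paired analysis was possible because the labels give no replicate numbers that pair animals across groups.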
